A study of Mus musculus with 12 samples.

Results

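The Rab GTPases are the largest branch of the Ras superfamily of small GTP-binding proteins, and here their mRNAs were followed in bone marrow-derived macrophages (BMDM) from wild type (wt) and *Treml4*-/- mice before and after lipopolysaccharide (LPS). Members were the genes of the deposited table whose symbol is Rab, a number, at most 1 letter and an optional digit, which left out the genes of Rab regulators and effectors. *Rab4a* was also left out by this rule. It gave 57 members among 43280 genes. *Rab1a* is listed in the table as *Rab1*. The mice had a C57BL6 background, marrow was grown into macrophages with M-CSF, and cells were unstimulated controls given PBS (M0) or given LPS at 100 ng/ml for 8 h (M1-8 h) or 12 h (M1-12 h). Each of the 6 groups (each genotype at M0 and after 8 h and 12 h of LPS) had 2 libraries that the sample labels call biological replicates. The labels do not say whether these came from separate animals, so p-values measure the spread between these libraries only.

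Rab proteins are molecular switches that give a membrane its identity. A guanine nucleotide exchange factor (GEF) loads them with GTP, the loaded form recruits effectors such as tethers, motors and lipid phosphatases, and a GTPase-activating protein (GAP) returns them to the GDP form, which GDP dissociation inhibitors take off the membrane. In macrophages they direct the traffic on which phagocytosis, cytokine secretion and receptor delivery depend: *Rab5* and *Rab7* proteins mark successive stages of endosomes and phagosomes, *Rab10* carries Toll-like receptor 4 to the cell surface, and *Rab20* has been tied to phagosome maturation.

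Promoters are shown for the member with the largest log2(CPM + 1) fold change at 8 h (*Rab20*), for the only member with an interferon-stimulated response element core in its window (*Rab19*), and for *Rab5a* and *Rab5b*, paralogs that moved apart. Each window runs from 250 bases before to 50 bases after a start site that RefSeq gives on GRCm38.p6, 5′ to 3′ on the strand of the gene, and capitals mark the motifs searched.
Rab20 promoter: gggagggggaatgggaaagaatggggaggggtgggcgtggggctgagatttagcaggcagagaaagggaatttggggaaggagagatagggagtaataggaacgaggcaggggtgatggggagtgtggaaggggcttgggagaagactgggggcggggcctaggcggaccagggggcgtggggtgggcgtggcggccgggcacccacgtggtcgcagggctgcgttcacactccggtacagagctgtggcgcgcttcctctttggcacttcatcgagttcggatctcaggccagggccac
Rab19 promoter: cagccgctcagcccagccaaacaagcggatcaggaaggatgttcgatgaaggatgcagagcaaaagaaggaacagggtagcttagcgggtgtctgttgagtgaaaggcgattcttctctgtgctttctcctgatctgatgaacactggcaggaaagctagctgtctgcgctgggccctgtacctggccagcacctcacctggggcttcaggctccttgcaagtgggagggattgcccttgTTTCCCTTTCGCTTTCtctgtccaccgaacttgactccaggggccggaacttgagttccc
Rab5a promoter: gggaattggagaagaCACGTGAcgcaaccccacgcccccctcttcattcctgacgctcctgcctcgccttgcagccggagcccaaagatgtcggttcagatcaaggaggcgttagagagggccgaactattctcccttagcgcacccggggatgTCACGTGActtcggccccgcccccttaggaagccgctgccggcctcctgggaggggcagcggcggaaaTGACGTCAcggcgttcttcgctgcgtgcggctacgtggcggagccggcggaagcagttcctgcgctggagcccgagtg
Rab5b promoter: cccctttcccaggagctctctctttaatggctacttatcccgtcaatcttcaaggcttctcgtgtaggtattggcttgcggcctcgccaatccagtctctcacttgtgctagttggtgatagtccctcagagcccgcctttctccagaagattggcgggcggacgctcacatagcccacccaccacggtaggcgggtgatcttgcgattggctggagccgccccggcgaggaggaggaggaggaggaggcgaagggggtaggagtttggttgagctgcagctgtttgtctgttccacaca

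The windows lie at chr8:11478591-11478890 on the minus strand (*Rab20*), chr6:39381103-39381402 on the plus strand (*Rab19*), chr17:53478984-53479283 on the plus strand (*Rab5a*) and chr10:128696219-128696518 on the minus strand (*Rab5b*). The table of windows held 48 of the 57 members, with 60 windows. The motifs, each searched on both strands, were kappaB as GGG, any 2 bases and TTTCC, the interferon-stimulated response element core as GAAA, any 2 bases and GAAA, AP-1 as TGANTCA, the CLEAR core of lysosomal gene promoters as TCACGTG and the cAMP response element as TGACGTCA. In *Rab19* the capitals are a pair of overlapping response element cores on the minus strand, and in *Rab5a* they are 3 matches to TCACGTG, of which a pair overlaps on opposite strands, and TGACGTCA. The kappaB letters were in 3 members (*Rab9*, *Rab15* and *Rab28*) and in 1.63% of the 32851 windows of all genes. The response element core was in *Rab19* alone and in 3.44% of all windows, and TGANTCA was in *Rab15*, *Rab34* and *Rab39b* and in 7.81% of all windows. The CLEAR core was in *Rab5a*, *Rab21*, *Rab23* and *Rab24* and in 3.77% of all windows, and TGACGTCA was in *Rab5a* and *Rab25* and in 1.79% of all windows. The windows of *Rab20*, *Rab5b* and *Rab43*, of which the latter has 4, held none of these letters.

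The libraries held 48008751 to 58500792 reads counted on genes, so that 1 read was worth 0.0171 to 0.0208 CPM, the unit of reads normalized to library size. *Treml4* had 0 reads in all 6 *Treml4*-/- libraries and 3.95 to 13.2 CPM in the wt libraries. All 7 macrophage markers listed were above 1 CPM in every group, with a summed level of 18875 to 25804 CPM at M0 and 8398 to 11633 CPM after LPS, and 6 LPS response genes summed to 83.2 to 113 CPM at M0 and 23662 to 27852 CPM after LPS. Of the other cell types, neutrophil markers summed to 37.4 to 124 CPM in M0 libraries, 60.1 to 95.0 CPM after 8 h and 44.2 to 62.8 CPM after 12 h, with none of the 8 genes at 3 reads or fewer throughout. Dendritic cell, B cell, T and NK cell, mast cell and basophil, fibroblast and erythroid lists each summed to at most 9.25 CPM, and Pax5, Cd3e, Cd3d, Cd3g and Trac were at 3 reads or fewer in every library. These are bulk samples, in which fewer cells of a type and less RNA per cell cannot be told apart.

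Of the 57 members, 42 reached 1 CPM in at least 2 libraries and were tested, while 15 did not (*Rab3b*, *Rab3c*, *Rab9b*, *Rab15*, *Rab17*, *Rab25*, *Rab26*, *Rab27b*, *Rab30*, *Rab36*, *Rab37*, *Rab38*, *Rab39b*, *Rab40b* and *Rab42*), none of them exceeding 1.10 CPM in any library. *Rab9b* had 0 reads in all 12 libraries, which allows up to 0.0513 to 0.0625 CPM at 3 reads a library, for counting error only. *Rab33a* passed only through its M1-12 h libraries and *Rab44* only through M0, so that for these 2 genes passing the filter and differing between times go together. Per kilobase of exon, the highest levels at M0 were those of the late endosomal *Rab7* at 228 CPM per kb, the early endosomal *Rab5c* at 169, the ER-to-Golgi *Rab1b* at 111, *Rab31*, which acts between the trans-Golgi and endosomes, at 96.7, and *Rab32*, a Rab of lysosome-related organelles, at 73.6 CPM per kb. After LPS the order was different. At M1-8 h *Rab5c* led with 263 CPM per kb, followed by *Rab43* with 225 and *Rab7* with 213, and *Rab20* went from rank 26 at M0 to rank 4.

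Together the members took 0.379% to 0.396% of all reads in M0 libraries, 0.539% to 0.554% after 8 h and 0.438% to 0.454% after 12 h, with no overlap between times. *Rab43* made up much of this, with 3.23% to 4.01% of the Rab reads without LPS, 20.4% to 24.5% at 8 h and 8.68% to 11.5% at 12 h. Without *Rab43* the sum was 3637 to 3831 CPM at M0, 4126 to 4399 CPM at 8 h and 3949 to 4147 CPM at 12 h, where the M1 ranges overlap and both lie above M0.

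After 8 h of LPS the Rab genes split into risers and fallers. Among the 42 tested, 12 rose and 14 fell by at least 1.4-fold (limma on the mean of genotypes, Benjamini-Hochberg adjusted p under 0.05 over 12086 genes), or 28.6% and 33.3%, beside 17.1% and 59.8% of all genes tested. Their median log2 fold change was -0.08 beside -0.72 over all genes. At 12 h, 11 rose and 16 fell, or 26.2% and 38.1% beside 16.3% and 60.3% of all genes, with a median of -0.15 beside -0.76. Among these, the calls of *Rab33a* (higher) and *Rab44* (lower) are tied to passing the filter, as given above. The median of all genes depended on how libraries were scaled. With median of ratios scaling the median of all genes was -0.04 at both times, and the Rab calls became 25 higher and 3 lower at 8 h and 23 higher and 5 lower at 12 h, beside 31.1% higher and 31.4% lower of all genes at 8 h and 32.7% and 32.6% at 12 h. Quantile normalization gave 20 higher and 8 lower at 8 h and 22 higher and 9 lower at 12 h, beside 27.8% higher and 35.9% lower of all genes at 8 h and 29.7% and 35.9% at 12 h. Of the 26 and 27 members called in CPM at 8 h and 12 h, 2 and 5 changed sign with median of ratios scaling. Quantile normalization turned the sign of 4 and 3, and all of these were fallers in CPM.

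The members called under all 3 scalings were 11 risers at 8 h (*Rab1*, *Rab5a*, *Rab6a*, *Rab8b*, *Rab9*, *Rab10*, *Rab12*, *Rab19*, *Rab20*, *Rab29* and *Rab43*) and 11 at 12 h (*Rab1*, *Rab5a*, *Rab5c*, *Rab6a*, *Rab8b*, *Rab10*, *Rab20*, *Rab21*, *Rab22a*, *Rab33a* and *Rab43*). Of the latter, *Rab33a* passed the filter only through its M1-12 h libraries. The fallers called under all 3 were *Rab6b*, *Rab34* and *Rab40c* at 8 h and at 12 h, with *Rab23* added at 12 h. How many of all genes were called under all 3 was not computed, so these counts are not read as particular to the Rab genes. Across times, 8 members were called higher at both and 12 lower at both, and 0 were called in opposite directions. The share of all genes called alike at both times was not computed, so this is not read as particular to the Rab genes. These comparisons share their M0 libraries. The plot of log2 fold changes by cellular role shows this split.

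**Figure D1:**
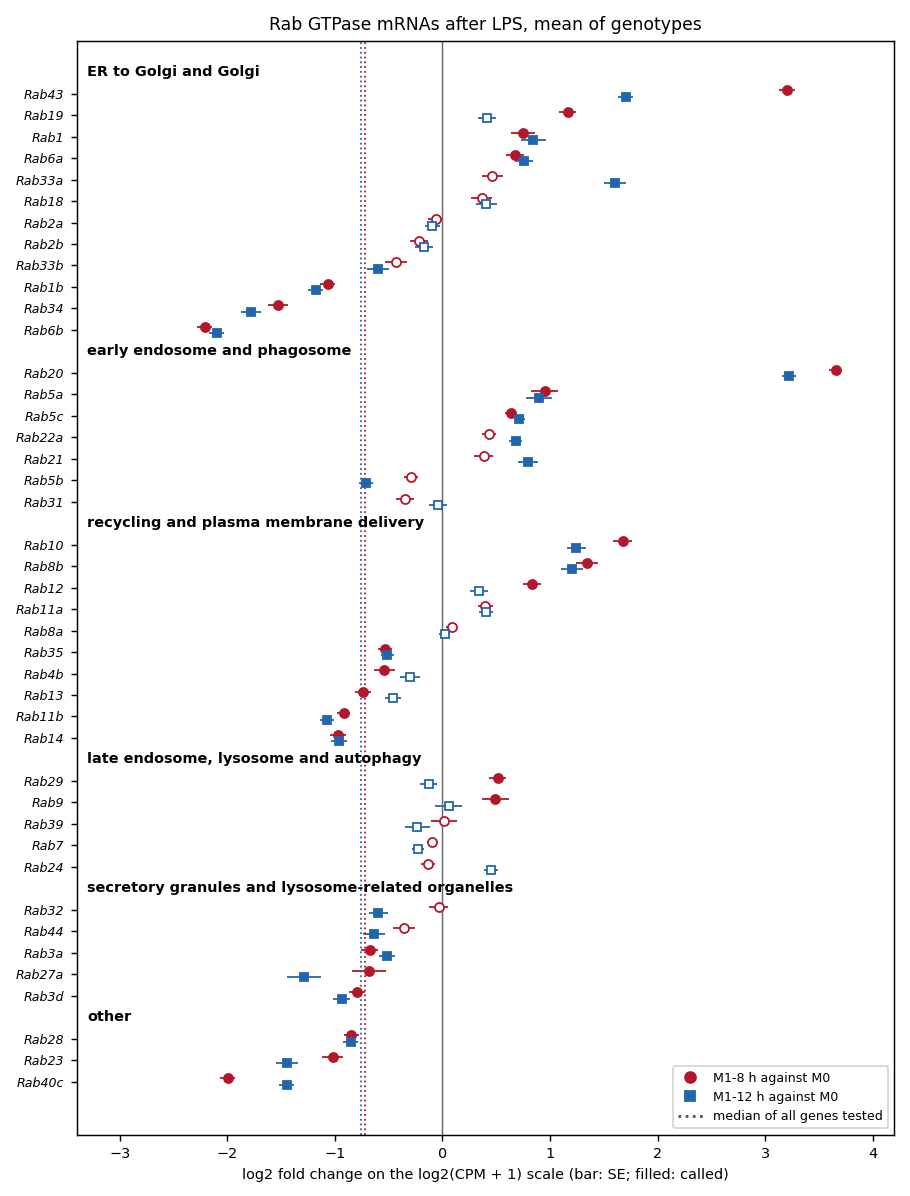
Log2 fold change on the log2(CPM + 1) scale (x axis) of the 42 tested Rab genes (y axis, grouped by role) at M1-8 h (circles) and M1-12 h (squares) against M0, mean of genotypes, with bars for 1 SE, filled symbols for genes called and dotted lines for the median of all genes. *Rab20* and *Rab43* lie farthest to the right at 8 h (3.65 and 3.20), and *Rab6b* and *Rab40c* farthest to the left (-2.21 and -2.0).

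Among early endosome and phagosome members (8 in the table, 7 tested), 3 rose and 0 fell at 8 h and 5 rose and 1 fell at 12 h. At 8 h these were 42.9% and 0%, beside 17.1% and 59.8% of all genes. At 12 h they were 71.4% and 14.3%, beside 16.3% and 60.3% of all genes. *Rab20*, at chromosome 8, 11453518 to 11478710, had the largest log2(CPM + 1) fold change of the members at 8 h. It had 10.3 and 11 CPM in wt and 10.4 and 10.2 CPM in *Treml4*-/- replicates at M0, 157 and 146 against 138 and 132 CPM at 8 h, and 102 and 112 against 100 and 109 CPM at 12 h. All libraries after LPS were above all M0 libraries, and the 8 h libraries were above the 12 h ones. Its log2 fold change was 3.65 (SE 0.06, limma, Benjamini-Hochberg adjusted p = 6.5e-13), 12.6-fold, at 8 h and 3.22 at 12 h. An opposite-strand gene, *E230013L22Rik*, shares 25.6% of the exon bases of *Rab20*. It went from a mean of 0.415 CPM at M0 to 4.47 CPM at 8 h, well under *Rab20*.

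*Rab5a*, which drives fusion of early endosomes, had 29.2 and 24.7 CPM in wt and 27.7 and 32.2 CPM in *Treml4*-/- cells at M0, 42.8 and 52.9 against 53.7 and 78.6 CPM at 8 h, and 53.7 and 52.1 against 59.3 and 49.8 CPM at 12 h. The M0 range lay below both M1 ranges, and replicates were widest apart in *Treml4*-/- cells at 8 h. Its log2 fold changes were 0.95 and 0.90 (SE 0.12 each). The paralog *Rab5c*, which had 353 to 391 CPM at M0, rose to 535 to 613 CPM at 8 h and 583 to 645 CPM at 12 h, by 0.64 and 0.71 on the log2 scale, although quantile normalization did not call the 8 h rise. *Rab5b* went the other way, from 169 to 181 CPM at M0 to 126 to 159 and 101 to 110 CPM. It was called lower at 12 h only (-0.71), a fall that turned into a log2 difference of 0.13 with median of ratios scaling. *Rab21*, an endosomal Rab of integrin traffic, was at 31 to 40.8 CPM at M0, 38.4 to 58.4 CPM at 8 h and 55.2 to 70.5 CPM at 12 h, and only the 12 h change (0.80) passed the fold threshold. *Rab22a* likewise was called at 12 h, with 67.8 to 79.3 CPM at M0, 96.6 to 104 CPM at 8 h and 115 to 124 CPM at 12 h. *Rab31* was not called at either time, with log2 differences of -0.35 and -0.04.

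In the ER-to-Golgi and Golgi group (14 in the table, 12 tested), 4 rose and 3 fell at 8 h and 4 rose and 4 fell at 12 h. At 8 h these were 33.3% and 25.0%, beside 17.1% and 59.8% of all genes. At 12 h they were 33.3% each, beside 16.3% and 60.3% of all genes. *Rab43*, a Golgi Rab at chromosome 6, 87788853 to 87812164, had 132 and 152 CPM in wt and 128 and 125 CPM in *Treml4*-/- cells at M0. At M1-8 h it reached 1346 and 1265 CPM in wt and 1229 and 1130 CPM in *Treml4*-/- cells, and at M1-12 h it was at 432 and 518 against 394 and 414 CPM. The 3 times did not overlap, with 12 h between M0 and 8 h. The log2 fold change was 3.20 (SE 0.07, limma, Benjamini-Hochberg adjusted p = 6.1e-12), 9.21-fold, at 8 h and 1.70 at 12 h. The annotated gene *Gm45140* covers 75.4% of the exon bases of *Rab43* on the same strand and has no value here, so reads of the pair cannot be told apart.

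*Rab1*, which acts in transport from the ER to the Golgi, was at 157 and 112 CPM in wt and 137 and 153 CPM in *Treml4*-/- cells at M0. It was at 200 and 198 against 238 and 316 CPM at 8 h and at 242 and 219 against 285 and 256 CPM at 12 h, above all M0 libraries, with log2 fold changes of 0.75 and 0.84 (SE 0.11 each). Its paralog *Rab1b* fell from 236 to 270 CPM at M0 to 107 to 135 CPM at 8 h and 106 to 114 CPM at 12 h, with log2 fold changes of -1.07 and -1.18, of which median of ratios scaling called neither (-0.27 and -0.33). *Rab6b*, a Golgi Rab known mainly from neurons, had the lowest log2(CPM + 1) fold change of the members tested. It had 6.67 and 6.39 CPM in wt and 7.88 and 8.49 CPM in *Treml4*-/- cells at M0, 0.666 and 0.780 against 0.855 and 0.897 CPM at 8 h, and 0.671 and 0.635 against 1.23 and 1.34 CPM at 12 h. No M1 library reached the M0 range, and the log2 fold changes were -2.21 and -2.1 (SE 0.07 each, limma, with 9.5e-11 and 1.5e-10 as Benjamini-Hochberg adjusted p). *Rab6a*, its more widely expressed paralog, rose from 57.2 to 74.2 CPM to 93.2 to 122 CPM at 8 h and 107 to 124 CPM at 12 h, and *Mrpl48* on the opposite strand shares 19.0% of its exon bases.

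*Rab34*, which positions lysosomes and acts in ciliogenesis, fell from 27.5 to 30.4 CPM at M0 to 7.81 to 10.1 CPM at 8 h and 6.57 to 8.35 CPM at 12 h, with log2 fold changes of -1.53 and -1.78. *Rab19*, a Golgi Rab at low level, had 2.71 to 3.14 CPM at M0, 7.55 to 8.22 CPM at 8 h and 3.95 to 4.64 CPM at 12 h. The 3 ranges were separate, and only the 8 h rise (1.16) was called against M0. *Rab33a* was near the limit of detection at M0, with 8 and 4 reads in wt and 6 and 5 reads in *Treml4*-/- libraries. It had 0.424 and 0.891 CPM in wt and 0.410 and 0.457 CPM in *Treml4*-/- cells at 8 h, and 2.51 and 3.35 against 1.83 and 1.98 CPM at 12 h. The mean CPM at 12 h was 21.6 times that at M0, while the log2(CPM + 1) scale, which understates low genes, gave 1.60. *Rab33b* moved the other way, from 11.7 to 15.3 CPM to 7.14 to 8.85 CPM at 12 h (-0.60), which turned into 0.17 with median of ratios scaling and into 0.40 when quantiles were equalized, neither of them called. *Rab2a* and *Rab2b*, at 80.0 and 12.8 CPM on average at M0, were called at neither time, and neither was *Rab18*, a Rab of lipid droplets and the ER. Median of ratios scaling called all 3 higher at 8 h. The opposite-strand gene *Gm43766* shares 59.3% of the exon bases of *Rab2b*.

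**Figure D2:**
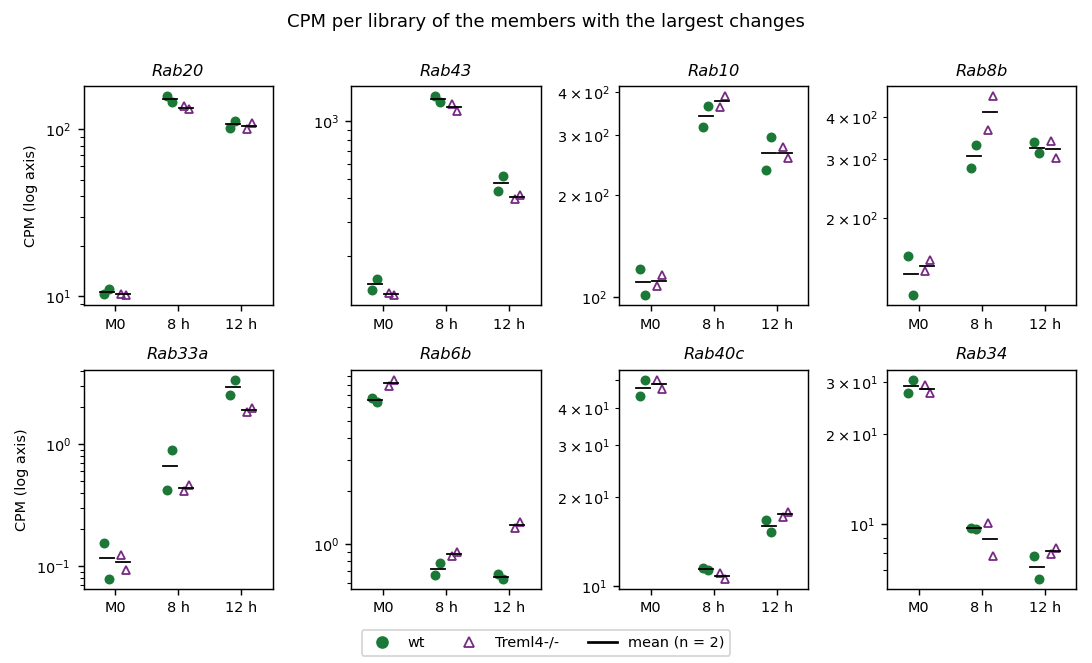
CPM (y axis, log scale, set for each gene) in each library at M0, 8 h and 12 h of LPS (x axis) for 8 Rab genes with large changes, with filled circles for wt, open triangles for *Treml4*-/- and lines for the mean of 2 replicates. *Rab43* reaches 1130 to 1346 CPM at 8 h from 125 to 152 CPM at M0, and *Rab6b* drops from 6.39 to 8.49 CPM to 0.666 to 0.897 CPM.

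Recycling and plasma membrane delivery members (12 in the table, 10 tested) held 3 risers and 5 fallers at 8 h and 2 and 3 at 12 h. At 8 h these were 3 and 5 of the 10 tested, beside 17.1% and 59.8% of all genes. At 12 h they were 2 and 3 of the 10, beside 16.3% and 60.3% of all genes. *Rab10* had 121 and 102 CPM in wt and 108 and 116 CPM in *Treml4*-/- cells at M0, 316 and 366 against 364 and 389 CPM at 8 h, and 236 and 296 against 276 and 256 CPM at 12 h. The times did not overlap, with the highest values at 8 h, and the log2 fold changes were 1.67 and 1.24 (SE 0.09 each). *Rab8b*, a Rab of exocytic traffic, had 153 and 117 CPM in wt and 138 and 149 CPM in *Treml4*-/- cells at M0, 282 and 331 against 367 and 462 CPM at 8 h and 337 and 312 against 339 and 302 CPM at 12 h. All M1 libraries were above M0, by 1.35 and 1.21 on the log2 scale. Its paralog *Rab8a* was not called in CPM, with 154 to 155 CPM at M0, 151 to 172 CPM at 8 h and 154 to 159 CPM at 12 h, while median of ratios scaling called it higher at 8 h (0.88). *Rab12*, which acts in transferrin receptor turnover, rose from 45.9 to 50.9 CPM to 82.0 to 91.7 CPM at 8 h and was at 51.7 to 65.7 CPM at 12 h.

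The fallers of this group fell by less than 2-fold at 8 h and, except for *Rab11b*, at 12 h. *Rab14*, which acts between the trans-Golgi and endosomes, went from 154 to 185 CPM to 76.5 to 97.5 CPM at 8 h and 82.0 to 101 CPM at 12 h. *Rab11b*, of recycling endosomes, went from 140 to 154 CPM to 67.4 to 88.7 CPM and 65.1 to 76.4 CPM, while *Rab11a* was at 75.7 to 82.6 CPM at M0 and 98.0 to 113 CPM at 8 h and did not reach 1.4-fold. *Rab13*, *Rab35* and *Rab4b* were the other members called lower at 8 h. With median of ratios scaling none of these 5 was called lower at 8 h, and the differences of *Rab35* and *Rab4b* changed sign (0.26 and 0.01). With quantile normalization those of *Rab13* and *Rab4b* did so (0.19 and 0.18). *Gm21983*, listed at 0, shares 65.0% of the exon bases of *Rab4b*.

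Late endosome, lysosome and autophagy members (8 in the table, 5 tested) held 2 risers at 8 h (*Rab9* and *Rab29*) and 0 fallers, and nothing was called at 12 h. At 8 h these were 2 and 0 of the 5 tested, beside 17.1% and 59.8% of all genes. At 12 h they were 0 and 0 of the 5, beside 16.3% and 60.3% of all genes. Each of the 2 calls fell under 1.4-fold without any 1 of 4 libraries, with log2 fold changes of 0.36 to 0.47 for *Rab9* and 0.45 to 0.48 for *Rab29*. *Rab7* had 603 and 614 CPM in wt and 570 and 590 CPM in *Treml4*-/- cells at M0, 571 and 534 against 572 and 547 CPM at 8 h and 485 and 467 against 541 and 538 CPM at 12 h. The 8 h range overlapped M0 and the 12 h range lay below it, and the log2 differences were -0.10 and -0.23, which became 0.70 and 0.62, both called higher, with median of ratios scaling. *Rab29*, the Golgi and lysosome Rab that recruits the kinase LRRK2, had 31.2 to 37.3 CPM at M0, 45.5 to 52.5 CPM at 8 h and 30.4 to 32.1 CPM at 12 h. The secretory granule and lysosome-related organelle members (11 in the table, 5 tested) gave 0 risers, with 3 fallers at 8 h (*Rab3a*, *Rab3d* and *Rab27a*), or 60.0% beside 59.8% of all genes, and 5 at 12 h (with *Rab32* and *Rab44*). The 5 at 12 h were 100% of those tested, beside 60.3% of all genes. *Rab44* passed the filter only through its M0 libraries, so its call is tied to the filter. With median of ratios scaling only *Rab27a* at 12 h was still called lower, and *Rab32*, a Rab of melanosome-type organelles, was called higher at 8 h (0.76). The differences of *Rab3a* at 12 h (0.10) and *Rab32* at 12 h (0.25) changed sign there. *Rab27a*, which docks secretory lysosomes, had 5.75 and 3.03 CPM in wt and 4.22 and 4.62 CPM in *Treml4*-/- cells at M0, 2.79 and 1.58 against 2.5 and 2.51 CPM at 8 h and 1.48 and 1.13 against 1.15 and 0.989 CPM at 12 h. It fell by 0.68 and 1.29 on the log2 scale (SE 0.16 each), although quantile normalization turned the 8 h difference into 0.16 and called neither. Neutrophil markers, which differ between libraries as given above, were 104 and 37.4 CPM in wt replicates 1 and 2 at M0, where *Rab44* was 1.08 and 0.492 CPM and *Rab27a* 5.75 and 3.03 CPM. Their part in these values was not tested.

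All 3 tested members of the remaining group fell at both times, or 100% beside 59.8% of all genes at 8 h and 60.3% at 12 h. *Rab40c*, whose SOCS box joins it to ubiquitin ligases, had 44.1 and 49.8 CPM in wt and 49.8 and 46.5 CPM in *Treml4*-/- cells at M0, 11.6 and 11.3 against 11.1 and 10.6 CPM at 8 h and 16.8 and 15.3 against 17.2 and 17.9 CPM at 12 h. The 3 times did not overlap, and the log2 fold changes were -2.0 and -1.45 (SE 0.07 each). *Rab23*, a negative regulator of Hedgehog signalling, fell from 4.35 to 4.94 CPM to 1.66 to 2.12 CPM at 8 h and 0.754 to 1.33 CPM at 12 h, with only the 12 h fall called with median of ratios scaling. *Rab28*, a ciliary Rab, went from 21.9 to 24.0 CPM to 11.5 to 12.8 CPM at 8 h and 11.7 to 12.8 CPM at 12 h, a fall that neither median of ratios scaling nor quantile normalization called, the latter with a difference of 0.03 at 12 h.

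Between 8 h and 12 h of LPS, 3 tested members rose and 6 fell, or 7.14% and 14.3% beside 13.5% and 18.7% of all genes. The risers were *Rab33a* (1.14), *Rab24* (0.59) and *Rab40c* (0.55), all values being log2 fold changes. *Rab33a* passed the filter only through its M1-12 h libraries, so its call is tied to the filter. *Rab24*, of autophagy, was at 24.9 to 27.2 CPM at M0, 21.5 to 25.0 CPM at 8 h and 34.6 to 37.0 CPM at 12 h, and the opposite-strand gene *Prelid1* shares 62.4% of its exon bases. Among the fallers, *Rab43* dropped by 1.5 (SE 0.07, limma, Benjamini-Hochberg adjusted p = 5.6e-08), *Rab19* by 0.75 and *Rab29* by 0.64, and the others were *Rab27a*, *Rab32* and *Rab12*. The calls were 3 higher and 5 lower with median of ratios scaling, where *Rab12* was not called, and 3 higher and 4 lower with quantile normalization. Of all genes, 15.5% were higher and 17.1% lower with the former, and 15.9% and 15.4% with the latter.

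Ratios between paralogs within a library do not change when a library is multiplied by 1 factor, as CPM and median of ratios scaling do. The ratios are given as a description, since no share of all gene pairs was computed to read them against. Per kb of exon, *Rab1* had 0.249 to 0.398 of the level of *Rab1b* at M0, 0.889 to 1.76 at 8 h and 1.15 to 1.61 at 12 h, so that at 12 h *Rab1* was above *Rab1b* in all 4 libraries. The ratio of *Rab6a* to *Rab6b* went from 10.8 to 15.0 at M0 to 161 to 192 at 8 h and 111 to 230 at 12 h. For *Rab5c* to *Rab5b* it went from 3.85 to 4.2 at M0 to 7.13 to 8.14 and then 10.2 to 11.5, and for *Rab5a* to *Rab5b* from 0.109 to 0.152 to 0.233 to 0.498 and then 0.362 to 0.432. *Rab8b* went from 0.755 to 0.984 of *Rab8a* at M0 to 1.62 to 3.01 at 8 h and 1.91 to 2.17 at 12 h. *Rab11a* to *Rab11b* went from 1.02 to 1.20 to 2.47 to 3.44 at 8 h, and *Rab22a* to *Rab31* from 0.0953 to 0.113 to 0.169 to 0.193. *Rab2a* to *Rab2b* had 10.6 to 13.0 at M0, overlapping 12.8 to 15.0 at 8 h. A ratio shows unequal change and not which member moved.

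**Figure D3:**
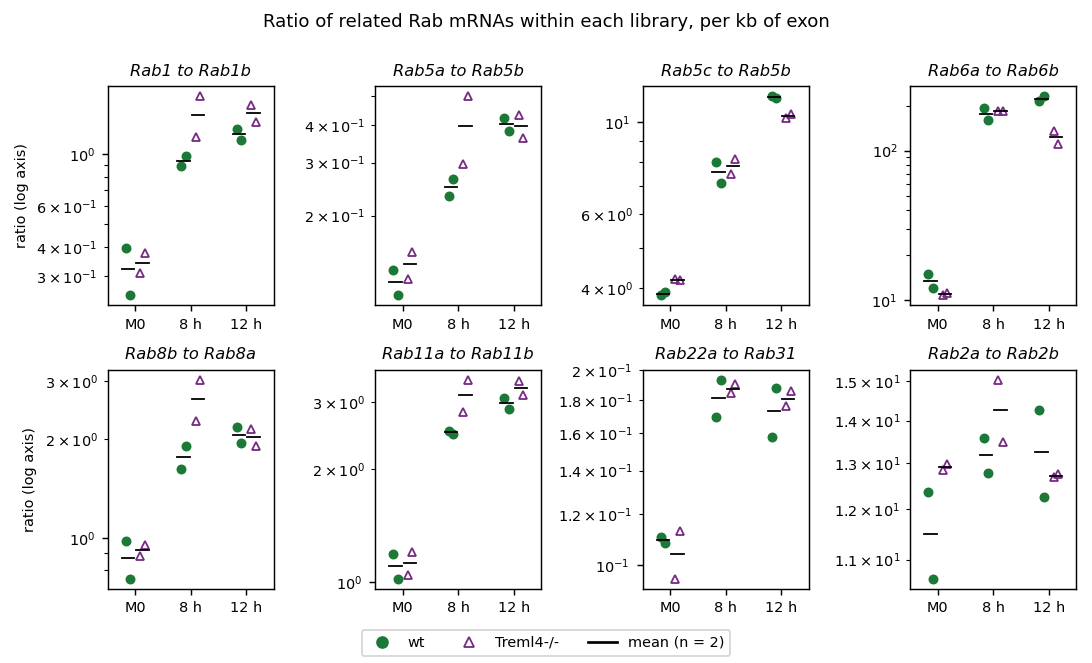
Ratio of CPM per kb of exon between 2 related Rab genes (y axis, log scale, set for each pair) in each library at M0, 8 h and 12 h of LPS (x axis), with filled circles for wt, open triangles for *Treml4*-/- and lines for the mean of 2 replicates. *Rab6a* to *Rab6b* goes from 10.8 to 15.0 at M0 to 161 to 192 at 8 h, while *Rab2a* to *Rab2b* overlaps between times.

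Of 131 genes of Rab regulators and effectors in the table, 119 were tested, and 23 rose and 75 fell at 8 h and 17 rose and 71 fell at 12 h. These were 19.3% and 63.0% at 8 h and 14.3% and 59.7% at 12 h, near the shares of all genes given above. Their median log2 fold changes were -0.90 and -0.74, beside -0.72 and -0.76 over all genes. With median of ratios scaling 37 rose and 44 fell at 8 h and 39 rose and 37 fell at 12 h. Under that scaling 31.1% of all genes rose and 31.4% fell at 8 h, and 32.7% and 32.6% at 12 h. Among 33 GEF genes tested, 8 rose and 19 fell at 8 h, or 24.2% and 57.6% beside 17.1% and 59.8% of all genes. *Ric1*, a partner in the GEF of *Rab6*, rose by 2.65 on the log2 scale (45.2 CPM ± 5.62 at M0 and 287 CPM ± 15.5 at 8 h, SD, n = 4 libraries of both genotypes), and *Rin2*, a GEF of *Rab5*, by 2.5 (125 CPM ± 9.55 to 717 CPM ± 87.2). *Rin1*, another GEF of *Rab5*, fell by 2.46 and *Dennd2c* by 2.49, from 5.72 and 6.45 CPM to 0.222 and 0.315 CPM. Of 34 GAP genes tested, 6 rose and 23 fell, or 17.6% and 67.6% beside the same shares of all genes, led upwards by *Tbc1d9* (1.75) and *Tbc1d14* (1.68) and downwards by *Tbc1d16* (-3.96) and *Tbc1d17* (-2.60). *Tbc1d16* went from 38.3 CPM ± 1.85 to 1.53 CPM ± 0.233. *Tbc1d14* was at -0.42 against M0 at 12 h in CPM.

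The 8 genes of Rab escort, prenylation and GDP dissociation inhibitors included 1 riser and 6 fallers at 8 h, or 12.5% and 75.0% beside 17.1% and 59.8% of all genes. At 12 h they included 0 risers and 5 fallers, or 0% and 62.5% beside 16.3% and 60.3% of all genes. The riser at 8 h was the escort protein gene *Chm* (0.60, SE 0.23, limma, Benjamini-Hochberg adjusted p = 0.0255), which was at -0.03 at 12 h in CPM. Its relative *Chml* fell by 1.70 and *Rabac1*, whose protein binds prenylated Rabs, by 1.35. Of 44 effector genes tested, 8 rose and 27 fell, or 18.2% and 61.4% beside 17.1% and 59.8% of all genes. *Rab11fip1*, an effector of *Rab11*, rose by 3.40 (28.1 CPM ± 2.1 to 308 CPM ± 41.6), and the inositol 5-phosphatase *Inpp5b* by 2.01, while the actin-oxidising enzyme *Mical1* fell by 2.53 and *Rab11fip3* by 2.51. Each of these regulators and effectors kept its 8 h call with median of ratios scaling.

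Between genotypes limma with Benjamini-Hochberg adjustment called no tested member at 0, 8 or 12 h of LPS, beside 0.0993%, 0.091% and 0.132% of all genes. At an unadjusted p under 0.05 there were 2 members before LPS, 10 at 8 h and 3 at 12 h, or 4.76%, 23.8% and 7.14% beside 3.35%, 21% and 7.55% of all genes, so that the Rab shares were near those of all genes. The lowest Benjamini-Hochberg adjusted p of limma was 1 at M0, 0.142 at 8 h and 0.149 at 12 h. Log2 differences, wt minus *Treml4*-/-, ran from -0.42 to 0.20 at M0, from -0.64 to 0.30 at 8 h and from -0.47 to 0.43 at 12 h, with a median SE of 0.11. On this log2(CPM + 1) scale, which understates low genes such as *Rab6b* and *Rab33a*, *Rab18*, *Rab21* and *Rab39* differed by 1.4-fold or more, all at 8 h, and no other member did. *Rab4a*, which the rule left out, was higher in wt at M0 (10.0 and 11 CPM against 2.00 and 1.78 CPM, a log2 difference of 2.00, limma, Benjamini-Hochberg adjusted p = 3.0e-05). After 8 h of LPS it had 57 and 34 reads in wt against 2 and 6 reads in *Treml4*-/- libraries. At 12 h it had 90 and 90 against 12 and 16 reads.

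The members with the lowest p between genotypes were as follows in their libraries. Since they were picked by p, separate ranges of 2 against 2 libraries add no support. The share of all genes with separate ranges was not computed. *Rab39*, which has been placed on phagosomes and autophagosomes, had 3.18 and 2.38 CPM in wt and 3.50 and 4.64 CPM in *Treml4*-/- cells at M0 (-0.42), 2.28 and 2.77 against 3.88 and 5.18 CPM at 8 h (-0.64, SE 0.17) and 2.49 and 2.64 against 3.15 and 2.57 CPM at 12 h. At M0 and 8 h the genotypes did not overlap, and at 12 h they did. *Rab6b* was lower in both wt replicates than in both *Treml4*-/- replicates at each time, with log2 differences of -0.29 at M0 and -0.47 at 12 h (SE 0.10 each). *Rab21* at 8 h had 40.3 and 38.4 CPM in wt and 54.0 and 58.4 CPM in *Treml4*-/- cells (-0.50, SE 0.13), and *Rab18* had 40.1 and 44.1 against 56.1 and 65.8 CPM (-0.52, SE 0.14). Neither pair overlapped. *Rab33a* at 12 h differed by 0.43 and *Rab7* by -0.18, again with no overlap, and *Rab44* at M0 differed by -0.28 with overlapping replicates.

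Of the 42 tested members, 10 (23.8%) had an unadjusted p under 0.05 at 8 h, beside 21% of all genes. Of these 10, 9 were lower in wt and *Rab11b* was higher, where 15.2% of all genes were lower and 5.77% higher. This split followed the scaling, since with median of ratios 14 members passed, 9 higher and 5 lower in wt. The share of all genes passing under that scaling was not computed. Without replicate 1 of *Treml4*-/- at 8 h, *Rab39* (-0.81, adjusted p = 0.0434) and *Rab5a* (-0.71, adjusted p = 0.0411) were called by limma after Benjamini-Hochberg adjustment, the remaining library, which had the highest *Rab5a*, *Rab8b* and *Rab39* of all 12, being assumed to vary like the other groups. In that setting 4.96% of all genes were called, 24 higher and 575 lower in wt of 12086, against 0.091% with all libraries. The LPS calls were also counted within each genotype. At 8 h, 12 members rose in wt and 14 in *Treml4*-/- cells (beside 16.3% and 17.7% of all genes), 11 of them in both, and 14 fell in each (beside 60.6% and 58.1%), 13 of them in both. At 12 h, 11 rose in each, the same 11 (beside 16.2% and 16.1% of all genes), and 15 and 16 fell (beside 60.4% and 59.6%), 15 of them in both. No member was called for a genotype difference in the LPS effect at 8 h or 12 h, beside 0.00827% of all genes at each time, and at an unadjusted p under 0.05, beside 6.67% and 3.82% of all genes, there were *Rab21* at 8 h (-0.48, SE 0.18) and *Rab7* at 12 h (-0.25, SE 0.10).

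**Figure D4:**
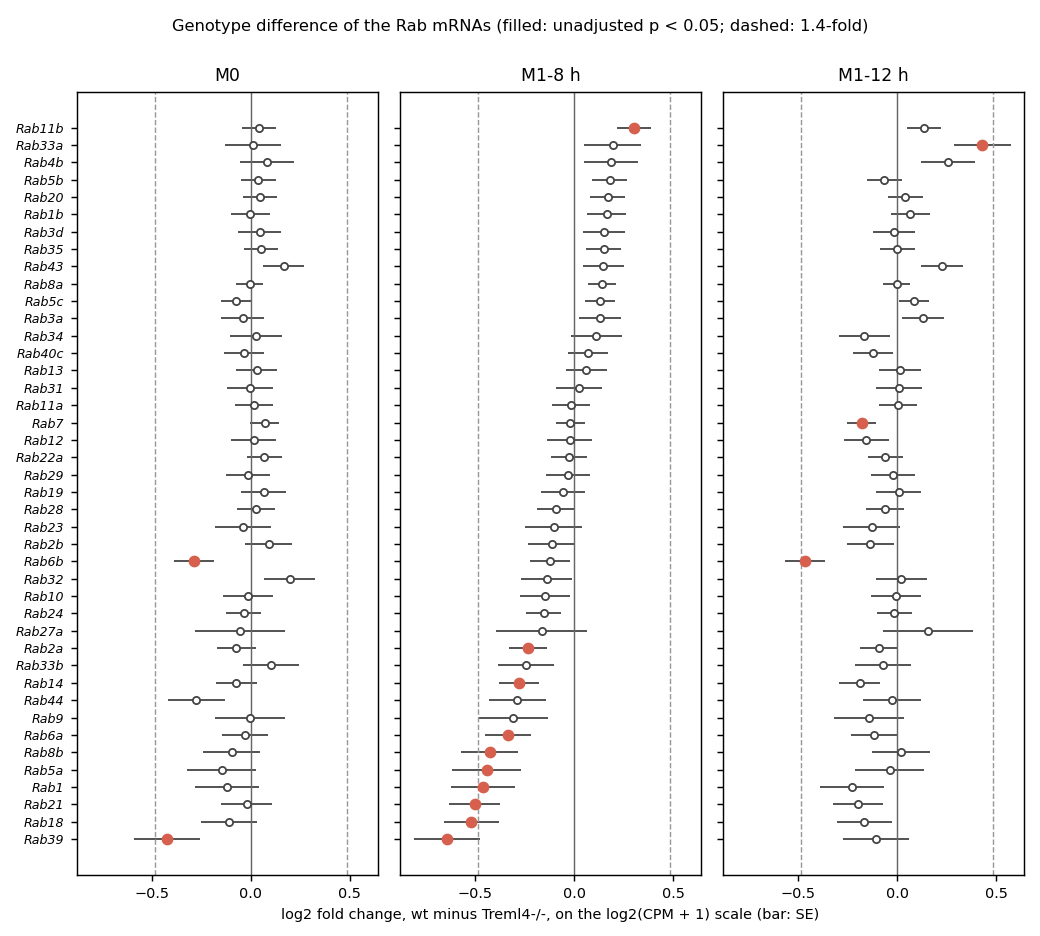
Log2 difference between wt and *Treml4*-/- on the log2(CPM + 1) scale (x axis, bars for 1 SE) of the 42 tested Rab genes (y axis, ordered by the value at 8 h) in 1 panel for each time, with filled points for an unadjusted p under 0.05 and dashed lines at 1.4-fold. On this scale, which understates low genes, *Rab18*, *Rab21* and *Rab39* at 8 h pass the dashed lines and no other member does, and 0 members were called after adjustment.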

How the data were processed

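Poly(A)-selected RNA of 12 BMDM libraries was sequenced on a stranded protocol. The authors aligned reads with STAR to mm10 (the submitters' processing notes) and counted them with Subread; whether counting used strand is not given in the sources used here. They deposited log2 CPM with a prior of 0.25 reads. Taking the prior off gave whole reads for 100% of values (tolerance 0.01). Log2 values were turned back into CPM and tested as log2(CPM + 1) with limma 3.58.1 (R 4.3.3), with 1 mean per group and a variance trend over 12 libraries. The 12086 genes reaching 1 CPM in at least 2 libraries were tested. Calls needed a 1.4-fold change and, after Benjamini-Hochberg adjustment, p under 0.05. Replicates differed by more than sampling noise (chi-square per degree of freedom of at least 11.3). The test was checked on simulated data with changes at 8 h in both genotypes. It called 16 of 50 changes of 1.4-fold, 42 of 50 of 2-fold and all 50 of 4-fold and of 8-fold. A change of 1.4-fold lies at the call threshold itself. Only these changes were placed among 11574 genes, up and down alike, whereas 76.9% of real genes were called at 8 h. The simulation therefore did not check the scaling of libraries or recovery when most genes change. No genotype difference was simulated, so recovery between genotypes was not checked. Exon lengths, overlaps and positions are from GENCODE M21 (GRCm38), promoters from RefSeq GRCm38.p6, and tables were handled with Python 3.11.15. Genes named were the 8 largest called changes in each direction at each LPS time, the 3 largest in each direction between 12 h and 8 h, the 3 lowest p-values between genotypes at each time and the 2 lowest for genotype by LPS, their paralogs, the 5 highest levels per kb and 2 regulators in each direction per list. Other genes were named after their values were seen. Members and lists were chosen with earlier results of these data known.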

Additional observations from a re-analysis of the deposited data

How the results depend on the processing

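Scaling of the libraries moved the counts most. With median of ratios scaling, 25 tested members rose and 3 fell at 8 h and 23 rose and 5 fell at 12 h, and with quantile normalization the counts were 20 and 8 at 8 h and 22 and 9 at 12 h, against 12 and 14 and 11 and 16 in CPM. Dropping the minimum fold gave 8 higher and 15 lower of the 42 tested between 8 h and 12 h, beside 26.1% and 34.2% of all genes. Leaving out each replicate in turn gave 10 to 13 higher and 13 to 15 lower at 8 h, 11 to 12 higher and 15 to 17 lower at 12 h, 3 to 3 higher and 5 to 7 lower between 12 h and 8 h, and 0 to 2 called between genotypes at 8 h, the 2 being *Rab39* and *Rab5a* without replicate 1 of *Treml4*-/-, where 4.96% of all genes were called. A pseudocount of 0.1 CPM, no filter, a filter at 5 CPM, no trend, the libraries of each comparison alone, and voom on recovered reads and the deposited log2 CPM used directly (both chosen after seeing the data) moved no count by over 1.5 times. Of 75 log2 values of single members (62 of them LPS calls), 7 changed sign with median of ratios scaling: *Rab35* (0.26) and *Rab4b* (0.013) at 8 h and *Rab32* (0.25), *Rab33b* (0.17), *Rab35* (0.33), *Rab3a* (0.10) and *Rab5b* (0.13) at 12 h. With quantile normalization 7 did: *Rab13* (0.19), *Rab27a* (0.16), *Rab3a* (0.070) and *Rab4b* (0.18) at 8 h and *Rab28* (0.035), *Rab33b* (0.40) and *Rab3a* (0.32) at 12 h. A further 16 and 10 kept their sign and were no longer called. Without 1 library, *Rab9*, *Rab29* and *Rab4b* at 8 h, *Rab35* at 12 h, and *Rab12* and *Rab27a* between 8 h and 12 h lost their call in at least 1 case, and no sign changed. Within a genotype, the labels carry the same replicate number across times and do not say whether those libraries share an animal, batch or day. Correlations of deviations between same-numbered libraries ran from -0.27 (*Treml4*-/- at 8 h and 12 h) to 0.46 (*Treml4*-/- at M0 and 8 h). With the replicate number as a block, 12 were higher and 14 lower at 8 h, and 11 and 16 at 12 h. The counts also stayed at 3 and 6 between 12 h and 8 h, and at 0 between genotypes and for genotype by LPS. A block within each genotype moved none of the counts for LPS or genotype by LPS by over 1.5 times. The edgeR and DESeq2 alternatives were not run. The deposited unit is log2 CPM, and voom was run on the reads recovered from it instead.

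With 2 replicates a group, no test for an outlying library was possible, and the median SE of a genotype difference was 0.11 on the log2 scale. Reads that *Rab43*, *Rab24*, *Rab2b* and *Rab4b* share with an overlapping gene cannot be assigned.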
